A study of Mus musculus with 6 samples.

Results

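The genes described here are the C-type lectin (Clec), killer cell lectin-like (Klr) and Siglec genes on a mouse whole-transcript Affymetrix array. A gene was included when its symbol began with Clec, Klr or Siglec and was the only symbol of its probe set, and Clec9a and Siglech were left out. That gave 60 genes of the 19938 named genes measured: 32 Clec, 23 Klr and 5 Siglec genes. The rule uses gene symbols and not expression values. The series compared 3 groups of mouse bone marrow cells with 2 arrays each, labelled as biological replicates. All marrow came from 8 week old C57BL/6 donors given 5-fluorouracil, was transduced with a retrovirus and was transplanted into mice of the same strain. The virus carried BCR-ABL, Blk and GFP in the BCR-ABL-Blk group, BCR-ABL and GFP in the BCR-ABL group, and GFP without either kinase gene in the vector group. BCR-ABL is the fusion kinase that drives chronic myeloid leukemia; Blk, a kinase of the Src family, is found mostly in B lymphocytes. Marrow was sorted 14 days later for GFP+ cells without lineage markers that carried both Sca-1 and c-Kit (the LSK gate, which in normal marrow is enriched for stem cells and early progenitors). Per the labels these are leukemic stem cells in both BCR-ABL groups and hematopoietic stem cells in the vector group, and the number of mice behind each replicate is not stated, so the spread between replicates may be partly technical.

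C-type lectins are membrane proteins with a carbohydrate recognition fold. Myeloid cells use many of them to sense microbial sugars and lipids or dying cells, through activating adaptors such as Fcer1g and Tyrobp or through inhibitory tails that recruit phosphatases. The Klr proteins share the fold but bind proteins, mostly MHC class I relatives or Clec2 family proteins, and are best known from natural killer (NK) cells. Siglecs are immunoglobulin-like receptors that bind sialic acids, most of them inhibitory. In mouse, most Clec and nearly all Klr genes lie on chromosome 6, many of them in gene clusters. Here 47 of the 60 members were on that chromosome, in clusters or outside them.

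The promoters of 4 members that the results turn on are shown first, as the 250 bases before the annotated start, from RefSeq on GRCm38.p6 and written on the strand of the gene. Klrk1 and Klrb1b read lower in both BCR-ABL groups, as did Klrd1, and Clec4d and Clec4e are the neighbouring lectins read highest in BCR-ABL cells. The windows are chr6:129623865-129624114 (minus strand) for Klrk1, chr6:128826316-128826565 (minus strand, the first of 2 annotated starts) for Klrb1b, chr6:123261857-123262106 (plus strand) for Clec4d and chr6:123289872-123290121 (minus strand) for Clec4e. Capitals mark matches, on either strand, to letters typical of sites for PU.1, C/EBP and RUNX factors.
Klrk1: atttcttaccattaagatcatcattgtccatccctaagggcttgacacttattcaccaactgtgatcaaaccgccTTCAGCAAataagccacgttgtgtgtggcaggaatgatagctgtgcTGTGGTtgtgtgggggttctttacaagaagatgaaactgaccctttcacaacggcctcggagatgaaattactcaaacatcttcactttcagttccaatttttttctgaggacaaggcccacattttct
Klrb1b: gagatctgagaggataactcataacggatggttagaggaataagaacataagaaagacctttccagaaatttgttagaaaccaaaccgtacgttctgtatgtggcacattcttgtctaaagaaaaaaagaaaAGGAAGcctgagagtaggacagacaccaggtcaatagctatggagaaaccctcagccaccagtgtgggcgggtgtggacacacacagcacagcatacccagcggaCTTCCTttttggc
Clec4d: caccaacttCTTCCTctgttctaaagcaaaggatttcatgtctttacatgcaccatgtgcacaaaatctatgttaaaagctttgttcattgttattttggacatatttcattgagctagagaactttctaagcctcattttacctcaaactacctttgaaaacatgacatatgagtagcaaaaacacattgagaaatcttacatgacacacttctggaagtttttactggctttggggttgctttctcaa
Clec4e: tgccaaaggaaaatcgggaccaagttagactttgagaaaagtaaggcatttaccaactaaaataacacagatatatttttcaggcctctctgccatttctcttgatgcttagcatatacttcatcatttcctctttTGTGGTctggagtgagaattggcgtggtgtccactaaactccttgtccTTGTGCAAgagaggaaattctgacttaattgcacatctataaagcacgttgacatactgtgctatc
Klrk1 and Clec4e each held a match to the C/EBP letters TTGCNNAA and a match to the RUNX letters TGTGGT. Klrb1b and Clec4d held matches to the PU.1 letters AGGAAG. None of the 4 windows matched the STAT letters TTCNNNGAA or the AP-1 letters TGANTCA. Over all 27025 RefSeq promoters of the same length, a match was found in 29.2% for PU.1, 14.2% for RUNX, 9.55% for C/EBP, 7.18% for STAT and 6.87% for AP-1. Of the 47 members with a promoter entry, 21 matched PU.1, 12 matched RUNX, 12 matched C/EBP, 5 matched AP-1 and 2 matched STAT, and the Klra genes among them are duplicated copies with similar promoters. These matches describe letters and are no evidence of a bound site.

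Levels are array signals on a log2 scale after quantile normalization, and a difference of 1 is a 2-fold change in signal. Most members read low. The median level of all named genes was 7.50, and 14 of the 60 members had a mean above it over the 6 arrays: 10 of 32 Clec genes, 1 of 23 Klr genes and 3 of 5 Siglec genes. Signal over background was not measured, so a low reading does not show that a gene was expressed, and a fold between low readings may understate the change in RNA. Levels of different probe sets are not compared. The deposited arrays did not share a common median, and without normalization the median of all genes moved to -0.11 in BCR-ABL against vector, 0.255 in BCR-ABL-Blk against BCR-ABL and 0.15 in BCR-ABL-Blk against vector, where quantile normalization gave 0.02, -0.01 and 0.00. Differences are therefore given after normalization.

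**Figure D1:**
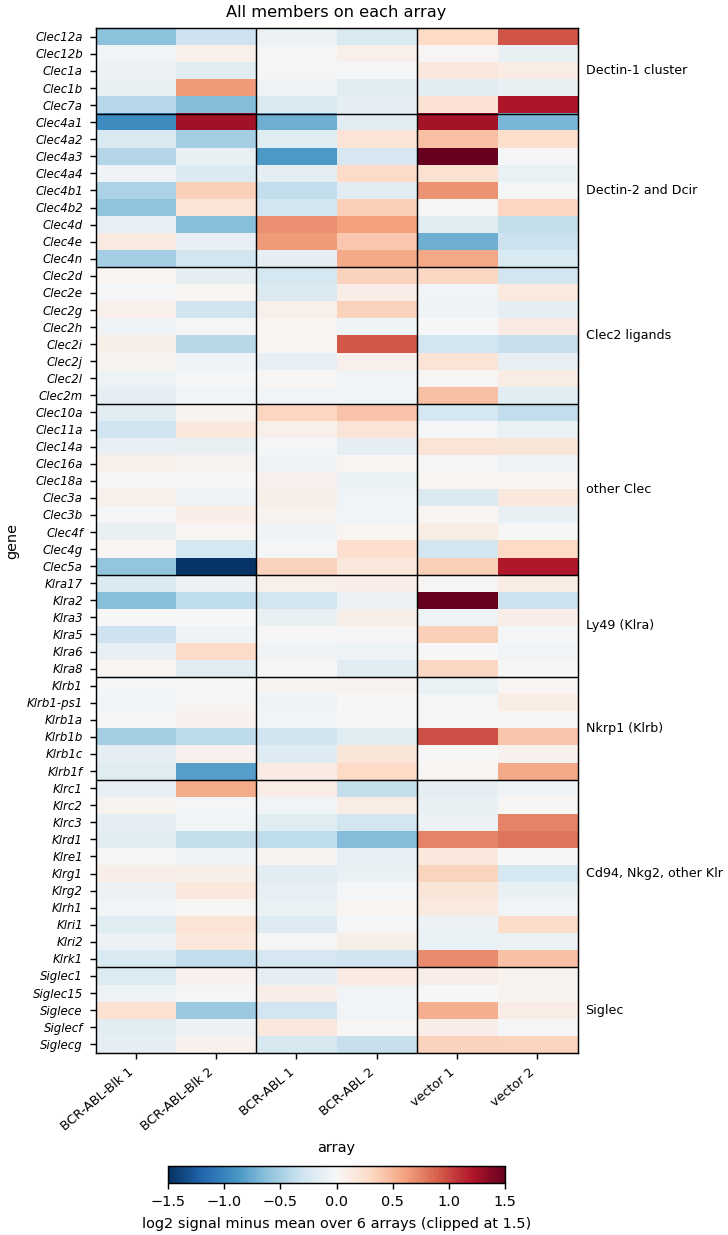
Heat map of all 60 members (rows, grouped by subfamily) on the 6 arrays (columns, BCR-ABL-Blk, BCR-ABL, vector). Colour is the log2 signal minus the gene's mean over the 6 arrays, clipped at 1.5. Klrd1 and Klrk1 are high on both vector arrays, whereas Klra2 and Clec4a3 are high only on vector replicate 1 and Clec4a1 is high on BCR-ABL-Blk replicate 2 and vector replicate 1.

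The comparison of BCR-ABL with vector cells asks what the oncogene brings with it in this gate. Among the members, Klrd1, which encodes the CD94 chain of NK cell receptors, fell 2.44-fold and was the single member to pass the test (limma, Benjamini-Hochberg adjusted over all 19938 genes, threshold 0.05). That is 1 of 60 members, or 1.67%, against 0.145% of all genes. At an unadjusted p under 0.05, 4 members were higher, 6.67% against 5.67% of all genes, and 8 were lower, 13.3% against 2.96% of all genes. On the deposited values without normalization between arrays these counts were 3 and 13, and the median of all genes moved to -0.11. Both BCR-ABL arrays lay above both vector arrays for 8 members, 13.3% against 22.1% of all genes, and below both for 15 members, 25% against 14.9% of all genes. The median difference of the members was -0.08, against 0.02 over all genes. Of the 60 differences 39 were below 0, against 9092 of 19938 over all genes. The 5th to 95th percentile of all genes ran from -0.29 to 0.39, and 14 members lay below this range and 4 above it. Many members lie side by side on chromosome 6, and some are near-identical copies, so counts of members are not counts of independent genes.

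Setting BCR-ABL-Blk cells against BCR-ABL cells asks what added Blk brings beside the oncogene. No member passed the test, and no gene of the table did, 0% of 19938, with a smallest limma adjusted p of 0.999. The member differences with the smallest unadjusted p were in Clec4d, Clec10a and Clec5a, myeloid lectins that all read lower with Blk. At an unadjusted p under 0.05, 0 members were higher, against 1.47% of all genes, and 7 were lower, 11.7% against 2.49% of all genes. Without normalization between arrays the split turned, to 5 higher and 2 lower, and the median of all genes moved to 0.255. For 5 members the BCR-ABL-Blk arrays were both above the BCR-ABL pair, 8.33% against 14% of all genes, and for 17 members both were below it, 28.3% against 20% of all genes. The median difference was -0.02, against -0.01 over all genes. The range of all genes was -0.28 to 0.24, with 12 members below it and 6 above it.

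In BCR-ABL-Blk against vector, which shares its vector arrays with the first comparison and its BCR-ABL-Blk arrays with the second (those 2 in turn share the BCR-ABL arrays), Klrd1 fell 2.04-fold and was again the single member to pass. This is 1.67% of members, against 0.14% of all genes. At an unadjusted p under 0.05, 1 member was higher, 1.67% against 5.31% of all genes, and 12 were lower, 20% against 4.11% of all genes. For 4 members the BCR-ABL-Blk arrays were both above the vector pair, 6.67% against 19.7% of all genes, and for 22 members both were below it, 36.7% against 17.5% of all genes. The median difference was -0.11, against 0.00 over all genes. Of the 60 differences 44 were below 0, against 9725 of 19938 over all genes. The range of all genes was -0.34 to 0.38, with 17 members below it and 2 above it.

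**Figure D2:**
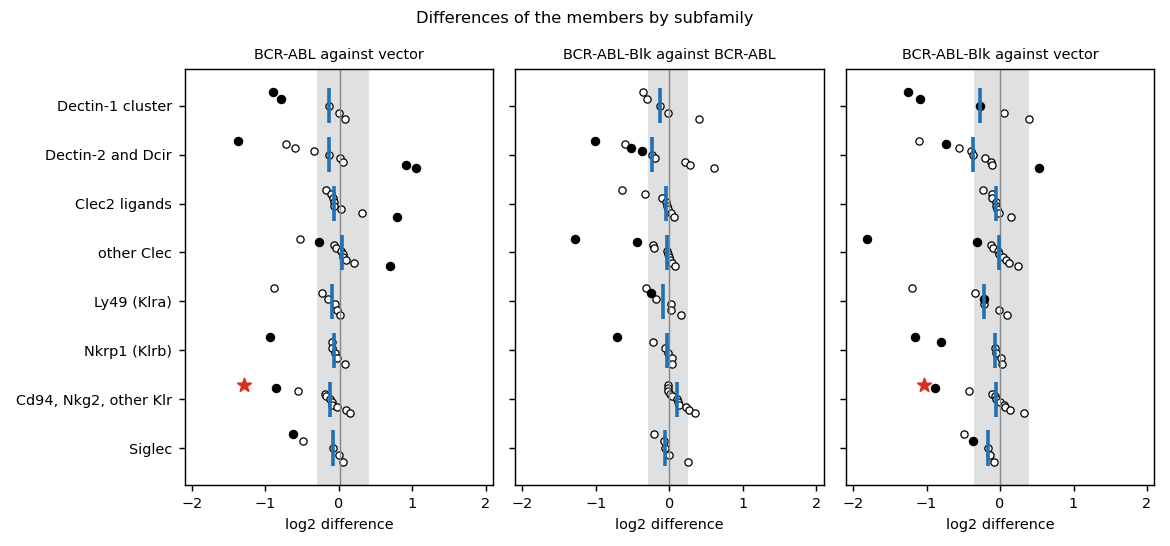
Log2 differences (horizontal axis) of the 60 members by subfamily (rows) in the 3 comparisons (panels). Open circles had an unadjusted p of 0.05 or more, filled circles were under 0.05, red stars passed the adjusted test, blue bars are subfamily medians, the grey band is the 5th to 95th percentile of all genes and the grey line their median. Klrd1 is the star in BCR-ABL against vector (-1.29) and in BCR-ABL-Blk against vector (-1.03), and the middle panel has no star.

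The group of CD94, NKG2 and other Klr receptors held 11 genes. CD94 (Klrd1) pairs with an NKG2 chain, and the pairs read the MHC class I relative Qa-1. Klrd1 (chromosome 6) read 5.99 and 5.79 in BCR-ABL-Blk cells, 5.76 and 5.50 in BCR-ABL cells, and 6.89 and 6.95 in vector cells. All 4 arrays with BCR-ABL lay below both vector arrays, with no overlap. The difference was -1.29 (SE 0.12, limma adjusted p = 0.0187) in BCR-ABL against vector, and -1.03 (SE 0.12, limma adjusted p = 0.049) in BCR-ABL-Blk against vector. Between BCR-ABL-Blk and BCR-ABL it was 0.26 (95% interval -0.02 to 0.54, limma adjusted p = 0.999). Hardly any gene of the table passed in BCR-ABL against vector when a BCR-ABL array was left out. The call of Klrd1 was lost in both of those fits, at -1.42 without replicate 1 and -1.16 without replicate 2. In BCR-ABL-Blk against vector it was lost without either BCR-ABL array (adjusted p = 0.0913 and 0.0959), without either BCR-ABL-Blk array (adjusted p = 0.125 and 0.195) and in several other fits, over a range of 0.0142 to 0.195, so this call lies at the threshold.

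The next gene on the chromosome, Klrk1, encodes NKG2D, the activating receptor for stress-induced class I relatives, which signals through Hcst. It read 5.71 and 5.56 in BCR-ABL-Blk cells, 5.68 and 5.64 in BCR-ABL cells, and 6.64 and 6.38 in vector cells. Again both vector arrays lay above the other 4 without overlap. Klrk1 did not pass the test: its difference was -0.85 (SE 0.11, limma adjusted p = 0.0529) in BCR-ABL against vector and -0.88 (SE 0.11, limma adjusted p = 0.0517) in BCR-ABL-Blk against vector. Leaving out a vector array raised the number of genes that passed over the whole table in BCR-ABL against vector, so passes there are not read for single genes. Without vector replicate 1 the difference of Klrk1 was -0.72 in BCR-ABL against vector and -0.75 in BCR-ABL-Blk against vector. Without vector replicate 2 it was -0.99 and -1.01 in the same order. Over all alternatives the adjusted p ran from 0.0123 to 0.388 in the first of these comparisons and from 0.0119 to 0.24 in the second. Between BCR-ABL-Blk and BCR-ABL the difference of Klrk1 was -0.02 (95% interval -0.29 to 0.24).

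The NKG2 chains, which follow Klrk1 on the chromosome in the order Klrc3, Klrc2 and Klrc1, did not share this pattern. Klrc1, the inhibitory NKG2A chain, read 4.93 and 5.61 in BCR-ABL-Blk cells, 5.16 and 4.69 in BCR-ABL cells, and 4.91 and 5.00 in vector cells, and all 3 groups overlapped. Its differences were -0.03 (SE 0.23) in BCR-ABL against vector, 0.35 (SE 0.23) in BCR-ABL-Blk against BCR-ABL and 0.32 (SE 0.23) in BCR-ABL-Blk against vector. Klrc2, the activating NKG2C chain, read between 5.15 and 5.38 on all 6 arrays. Klrc3, the NKG2E chain, read 3.76 and 3.87 with BCR-ABL-Blk, 3.73 and 3.64 with BCR-ABL, and 3.82 and 4.65 with vector. Its high value stood on vector replicate 2 alone. Without vector replicate 1 only that high array stood for vector, and the differences widened to -0.97 for BCR-ABL cells and -0.84 for BCR-ABL-Blk cells. Vector replicate 1 itself, at 3.82, lay between the BCR-ABL-Blk arrays. Klre1, on the other side of Klrd1, read between 4.12 and 4.40 on all arrays. Klrg1, an inhibitory receptor of effector lymphocytes that binds E-cadherin, read 5.85 and 5.84 in BCR-ABL-Blk cells, 5.58 and 5.65 in BCR-ABL cells, and 6.08 and 5.49 in vector cells, where the vector replicates lay on both sides of the others. For the 11 genes the median difference was -0.12 in BCR-ABL against vector, 0.10 in BCR-ABL-Blk against BCR-ABL and -0.06 in BCR-ABL-Blk against vector.

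**Figure D3:**
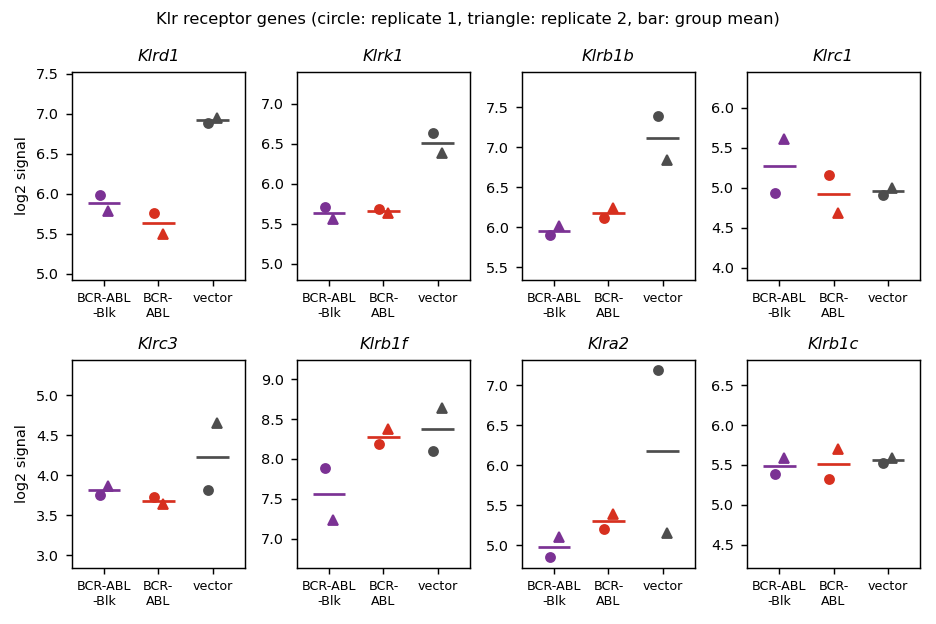
Log2 signal (vertical axes) of 8 Klr genes by group, with circles for replicate 1, triangles for replicate 2 and bars for group means. In Klrd1, Klrk1 and Klrb1b both vector arrays lie above all other arrays, in Klra2 vector replicate 1 alone is high (7.19), and the groups overlap in Klrc1 and Klrb1c.

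The Nkrp1 (Klrb) receptors, with 6 genes measured, recognise Clec2 (Clr) proteins. Klrb1b, an inhibitory receptor for Clec2d, read 5.90 and 6.02 in BCR-ABL-Blk cells, 6.12 and 6.24 in BCR-ABL cells, and 7.39 and 6.84 in vector cells. Both vector arrays were higher than all 4 others. The difference was -0.94 (SE 0.17, limma adjusted p = 0.123) in BCR-ABL against vector and -1.16 (SE 0.17, limma adjusted p = 0.0696) in BCR-ABL-Blk against vector, which did not pass. Without vector replicate 1 the difference was -0.66 and -0.88 in these comparisons, and without vector replicate 2 it was -1.21 and -1.43. Whether Klrb1b passed depended on the processing. Klrb1f, an Nkrp1 receptor that binds Clec2i, read 7.89 and 7.24 in BCR-ABL-Blk cells, 8.19 and 8.37 in BCR-ABL cells, and 8.10 and 8.64 in vector cells. It was the single Klr gene with a mean level above the median of named genes, and its BCR-ABL-Blk arrays were below the other 4. The difference was -0.71 (SE 0.25, limma adjusted p = 0.999) against BCR-ABL and -0.80 (SE 0.25, limma adjusted p = 0.352) against vector. The gene of the NK1.1 antigen, Klrb1c, read 5.39 and 5.59 with BCR-ABL-Blk, 5.33 and 5.70 with BCR-ABL, and 5.53 and 5.59 with vector, so its groups overlapped. Klrb1, Klrb1a and Klrb1-ps1 varied by less than 0.2 over the 6 arrays.

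Clec2 proteins are the partners of these receptors, and 8 of their genes were measured. Clec2d, the Clr-b partner of Klrb1b, read 9.41 and 9.25 in BCR-ABL-Blk cells, 9.12 and 9.73 in BCR-ABL cells, and 9.69 and 9.10 in vector cells, with the groups overlapping. Clec2i (Clr-g), the partner of Klrb1f, read 8.89 and 8.38 in BCR-ABL-Blk cells, 8.83 and 9.73 in BCR-ABL cells, and 8.52 and 8.46 in vector cells. The BCR-ABL arrays lay above the vector arrays, with the highest value on BCR-ABL replicate 2, and the difference was 0.79 (SE 0.30, limma adjusted p = 0.505). The 95% interval of Clec2i in BCR-ABL-Blk against BCR-ABL ran from -1.34 to 0.05 around -0.64. Clec2g read 6.36 and 5.98 with BCR-ABL-Blk, 6.36 and 6.63 with BCR-ABL, and 6.22 and 6.14 with vector, a difference of 0.32 (SE 0.15) in BCR-ABL against vector. The other members of this group had differences between -0.23 and 0.06 in all 3 comparisons.

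Ly49 (Klra) receptors read classical MHC class I in mice, and 6 had a probe set of their own. Their sequences are near-identical, so signal can cross between copies, and 4 further probe sets that list 13 Klra symbols between them were not used for any gene. Klra2 (Ly49B), which is known from myeloid cells, read 4.85 and 5.10 in BCR-ABL-Blk cells, 5.21 and 5.39 in BCR-ABL cells, and 7.19 and 5.16 in vector cells. Its high value came from vector replicate 1 alone. The difference was -0.88 (SE 0.54) in BCR-ABL against vector and -1.20 (SE 0.54) in BCR-ABL-Blk against vector. Without vector replicate 1 the first of these was 0.14, and without vector replicate 2 it was -1.89 and the second was -2.22. Vector replicate 2, at 5.16, lay just above the higher BCR-ABL-Blk array, at 5.10. Klra17 (Ly49Q), known from plasmacytoid dendritic cells, read 4.22 and 4.35 with BCR-ABL-Blk, 4.52 and 4.54 with BCR-ABL, and 4.46 and 4.55 with vector. Both BCR-ABL-Blk arrays were below the other 4, at -0.25 (SE 0.09, limma adjusted p = 0.999) against BCR-ABL and -0.22 (SE 0.09, limma adjusted p = 0.499) against vector. Klra5 (Ly49E) read 3.84 and 4.10 with BCR-ABL-Blk, 4.16 and 4.16 with BCR-ABL, and 4.51 and 4.12 with vector. Its BCR-ABL-Blk arrays were likewise below the other 4, with a difference of -0.19 (SE 0.15) against BCR-ABL, which was 0.03 without normalization between arrays, and of -0.34 (SE 0.15, limma adjusted p = 0.538) against vector. Klra8 (Ly49H), which recognises a cytomegalovirus protein, had differences of -0.23, 0.02 and -0.22 in BCR-ABL against vector, BCR-ABL-Blk against BCR-ABL and BCR-ABL-Blk against vector.

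The Dectin-1 cluster held 5 measured genes, and 3 of them (Clec7a, Clec12a and Clec1a) read lower in both BCR-ABL groups without passing the test. Clec7a is Dectin-1, the receptor for fungal beta-glucan. It read 7.14 and 6.92 in BCR-ABL-Blk cells, 7.35 and 7.43 in BCR-ABL cells, and 7.78 and 8.78 in vector cells. The groups did not overlap, and the vector replicates differed from each other by 1.00. The difference was -0.89 (SE 0.29, limma adjusted p = 0.40) in BCR-ABL against vector and -1.25 (SE 0.29, limma adjusted p = 0.185) in BCR-ABL-Blk against vector. Clec12a, an inhibitory receptor also known as MICL and used in human leukemia as a surface marker of leukemic stem cells, read 9.07 and 9.38 in BCR-ABL-Blk cells, 9.60 and 9.46 in BCR-ABL cells, and 9.99 and 10.63 in vector cells. Here too all vector values were above the rest. The difference was -0.79 (SE 0.22, limma adjusted p = 0.332) in BCR-ABL against vector, -0.30 (SE 0.22) in BCR-ABL-Blk against BCR-ABL and -1.09 (SE 0.22, limma adjusted p = 0.138) in BCR-ABL-Blk against vector.

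Both genes differed more from vector when vector replicate 1, the lower of the vector arrays for them, was left out. Clec7a then differed by -1.39 for BCR-ABL cells and -1.75 for BCR-ABL-Blk cells, and Clec12a by -1.11 and -1.41. Over single arrays left out, the difference of Clec7a ran from -1.39 to -0.39 for BCR-ABL cells and -1.75 to -0.75 for BCR-ABL-Blk cells. That of Clec12a ran from -1.11 to -0.46 and from -1.41 to -0.77 in the same order. Clec1b (CLEC-2), the podoplanin receptor of platelets, read 4.61 and 5.35 in BCR-ABL-Blk cells, 4.64 and 4.53 in BCR-ABL cells, and 4.56 and 4.61 in vector cells, so that BCR-ABL-Blk replicate 2 stood apart. Clec1a, a relative found on endothelium and dendritic cells, read 6.16 and 6.07 with BCR-ABL-Blk, 6.27 and 6.23 with BCR-ABL, and 6.41 and 6.36 with vector, a small ordered series without overlap. Clec12b read between 6.20 and 6.38 on all arrays.

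The Dectin-2 and Dcir cluster, with 9 genes measured, held members that differed in opposite directions. Clec4e is Mincle, which senses mycobacterial glycolipid and dying cells, and Clec4d (MCL) is its neighbour and partner; both signal through Fcer1g. Clec4e read 10.12 and 9.87 in BCR-ABL-Blk cells, 10.63 and 10.39 in BCR-ABL cells, and 9.26 and 9.67 in vector cells. Clec4d read 7.52 and 7.0 in BCR-ABL-Blk cells, 8.32 and 8.25 in BCR-ABL cells, and 7.47 and 7.28 in vector cells. Both BCR-ABL arrays were the highest of all 6 for each gene. The BCR-ABL-Blk arrays of Clec4e lay between those of BCR-ABL and vector, and those of Clec4d lay on both sides of the vector arrays.

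In BCR-ABL against vector the difference was 1.05 (SE 0.18, limma adjusted p = 0.0923) for Clec4e and 0.91 (SE 0.18, limma adjusted p = 0.148) for Clec4d, neither of which passed. Clec4e differed by 0.85 without vector replicate 1 and by 1.25 without vector replicate 2, and whether it passed depended on the processing. In BCR-ABL-Blk against BCR-ABL the difference was -0.52 (SE 0.18) for Clec4e and -1.02 (SE 0.18) for Clec4d, 2.03-fold lower with Blk, at an adjusted p of 0.999 in limma for each. The 95% interval of Clec4d before any adjustment was -1.45 to -0.60. In BCR-ABL-Blk against vector, Clec4d differed by -0.11 (95% interval -0.54 to 0.31) and Clec4e by 0.53 (SE 0.18, limma adjusted p = 0.377). The third neighbour, Clec4n (Dectin-2, a receptor for fungal mannans), read 5.40 and 5.63 in BCR-ABL-Blk cells, 5.78 and 6.48 in BCR-ABL cells, and 6.49 and 5.68 in vector cells. Its vector and BCR-ABL values overlapped, and both BCR-ABL-Blk arrays read lowest.

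The Dcir genes encode inhibitory receptors and close relatives without the inhibitory tail. Clec4a2 (DCIR1) read 6.26 and 5.97 in BCR-ABL-Blk cells, 6.30 and 6.69 in BCR-ABL cells, and 6.93 and 6.75 in vector cells, with no overlap between groups. The differences were -0.34 (SE 0.16) in BCR-ABL against vector, -0.38 (SE 0.16) in BCR-ABL-Blk against BCR-ABL and -0.73 (SE 0.16, limma adjusted p = 0.164) in BCR-ABL-Blk against vector. Clec4a3 read 6.83 and 7.16 with BCR-ABL-Blk, 6.41 and 7.02 with BCR-ABL, and 8.95 and 7.24 with vector. Clec4a1 read 5.40 and 7.60 with BCR-ABL-Blk, 5.61 and 6.18 with BCR-ABL, and 7.59 and 5.66 with vector. For both genes single arrays set the group means: vector replicate 1 for Clec4a3, and BCR-ABL-Blk replicate 2 with vector replicate 1 for Clec4a1. Clec4a3 differed by -1.37 (SE 0.49, limma adjusted p = 0.471) in BCR-ABL against vector. Without vector replicate 2 only the high vector array was left, and the difference was -2.23 in this comparison and -1.95 in BCR-ABL-Blk against vector. Vector replicate 2 itself, at 7.24, lay close to the higher BCR-ABL-Blk array (7.16) and the higher BCR-ABL array (7.02).

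Among the 10 other Clec genes none passed, and Clec5a and Clec10a had the widest differences in BCR-ABL against vector and in BCR-ABL-Blk against BCR-ABL. Clec5a (MDL-1), a Tyrobp-coupled receptor of monocytes and neutrophils, read 7.25 and 6.37 in BCR-ABL-Blk cells, 8.18 and 8.00 in BCR-ABL cells, and 8.20 and 9.04 in vector cells. Both BCR-ABL-Blk arrays were lowest and the vector arrays highest, with BCR-ABL replicate 1 just under vector replicate 1. The difference was -0.53 (SE 0.34) in BCR-ABL against vector, -1.28 (SE 0.34, limma adjusted p = 0.999) in BCR-ABL-Blk against BCR-ABL and -1.81 (SE 0.34, limma adjusted p = 0.114) in BCR-ABL-Blk against vector, 3.5-fold lower and the widest fold of any member in that comparison. In BCR-ABL-Blk against vector Clec5a differed by -2.22 without vector replicate 1, and by -2.25 to -1.36 over single arrays left out. Whether it passed depended on the processing. Clec10a (MGL1), the galactose-type lectin of macrophages, read 6.42 and 6.63 in BCR-ABL-Blk cells, 6.91 and 7.02 in BCR-ABL cells, and 6.33 and 6.22 in vector cells. The 3 groups did not overlap, with BCR-ABL highest. The difference was 0.69 (SE 0.11, limma adjusted p = 0.0841) in BCR-ABL against vector, -0.44 (SE 0.11, limma adjusted p = 0.999) in BCR-ABL-Blk against BCR-ABL and 0.25 (SE 0.11) in BCR-ABL-Blk against vector. Without vector replicate 1 the first of these was 0.75, and without normalization between arrays it was 0.55 (limma adjusted p = 0.831).

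Clec11a, a secreted growth factor for hematopoietic progenitors, read 7.68 and 8.13 in BCR-ABL-Blk cells, 8.05 and 8.17 in BCR-ABL cells, and 7.95 and 7.87 in vector cells. The BCR-ABL-Blk replicates spanned the vector values, and no difference exceeded 0.21 in size. Clec14a, an endothelial lectin, read 5.71 and 5.72 with BCR-ABL-Blk, 5.82 and 5.70 with BCR-ABL, and 6.04 and 6.02 with vector, at differences of -0.27 (SE 0.09, limma adjusted p = 0.412) and -0.32 (SE 0.09, limma adjusted p = 0.293) from vector. For Clec16a, which acts in autophagy rather than as a receptor, the 6 arrays read between 7.78 and 7.93.

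**Figure D4:**
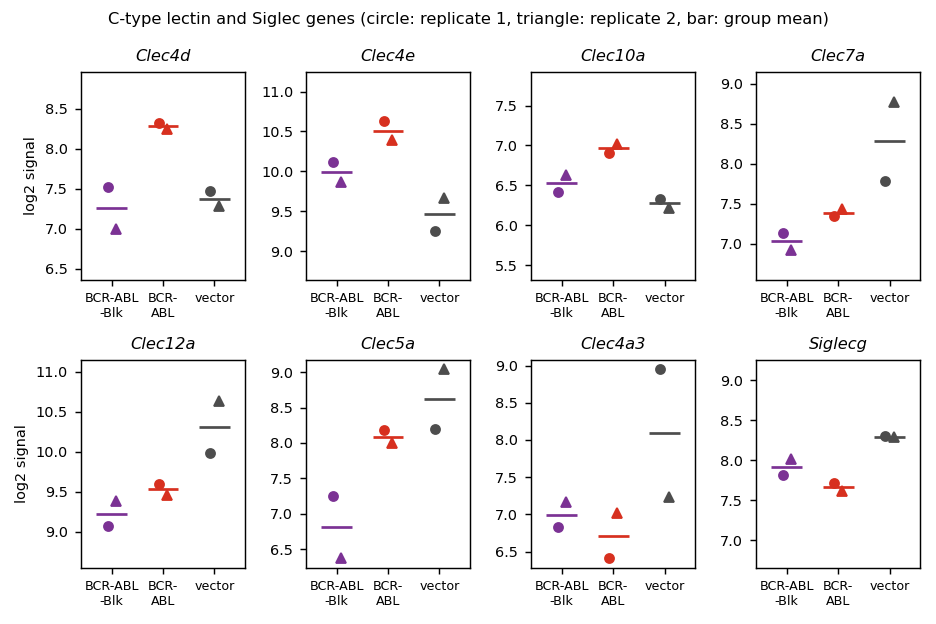
Log2 signal (vertical axes) of 7 Clec genes and Siglecg by group, with circles for replicate 1, triangles for replicate 2 and bars for group means. Clec4d, Clec4e and Clec10a are highest on both BCR-ABL arrays, Clec7a, Clec12a and Siglecg are highest on both vector arrays, Clec5a is lowest on both BCR-ABL-Blk arrays, and Clec4a3 is high on vector replicate 1 alone (8.95).

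Of the 5 Siglec genes measured, none passed in any comparison. Siglecg, an inhibitory receptor of B cells that also binds Cd24, read 7.82 and 8.02 in BCR-ABL-Blk cells, 7.72 and 7.61 in BCR-ABL cells, and 8.30 and 8.29 in vector cells. The 3 groups did not overlap and BCR-ABL was lowest. The difference was -0.62 (SE 0.13, limma adjusted p = 0.171) in BCR-ABL against vector, 0.25 (SE 0.13) in BCR-ABL-Blk against BCR-ABL and -0.37 (SE 0.13, limma adjusted p = 0.414) in BCR-ABL-Blk against vector. Siglece, an inhibitory receptor of neutrophils and macrophages, read 6.95 and 6.16 with BCR-ABL-Blk, 6.43 and 6.68 with BCR-ABL, and 7.26 and 6.83 with vector. Its BCR-ABL arrays were below the vector arrays (-0.49, SE 0.26), while the BCR-ABL-Blk replicates lay on both sides of BCR-ABL. Siglecf, the eosinophil Siglec, read between 8.08 and 8.40, and Siglec1 (sialoadhesin of macrophages) between 6.99 and 7.32, with differences no larger than 0.21 and 0.14 in size. Siglec15, a Tyrobp-coupled receptor of osteoclasts, read between 8.13 and 8.30.

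Replicates of the members differed somewhat more than those of other genes. The median absolute gap between the 2 arrays of a group was 0.19 for members in BCR-ABL-Blk, 0.14 in BCR-ABL and 0.18 in vector, against 0.12, 0.12 and 0.15 over all genes. A gap above 1 was found in BCR-ABL-Blk for Clec4a1 (-2.20, replicate 1 minus replicate 2), in no member for BCR-ABL, and in vector for Klra2 (2.03), Clec4a1 (1.93) and Clec4a3 (1.71).

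Genes that work with these receptors were read in the same fit. Of 18 adaptor and signalling genes listed, 17 were measured and 0 passed in each comparison, with median differences of -0.15 in BCR-ABL against vector, -0.01 in BCR-ABL-Blk against BCR-ABL and -0.15 in BCR-ABL-Blk against vector. Tyrobp (DAP12), the adaptor of Clec5a and of activating Klr receptors, read 11.05 and 11.27 in BCR-ABL-Blk cells, 11.14 and 11.38 in BCR-ABL cells, and 11.64 and 11.64 in vector cells. Fcer1g, the adaptor of Clec4d, Clec4e and Clec4n, read 9.03 and 9.28 with BCR-ABL-Blk, 9.22 and 9.20 with BCR-ABL, and 9.63 and 9.61 with vector. Both adaptors were highest on the vector arrays, at -0.38 and -0.41 in BCR-ABL against vector (limma adjusted p = 0.338 and 0.44), although Clec4d and Clec4e read highest in BCR-ABL cells. Hcst (DAP10), the adaptor of Klrk1, read between 9.33 and 9.65 on all arrays, with a difference of 0.00 in BCR-ABL against vector. Sh2d1b1 (EAT-2), an adaptor of NK cells, differed by -0.43 in BCR-ABL-Blk against BCR-ABL and by -0.57 in BCR-ABL-Blk against vector (limma adjusted p = 0.131).

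Of 18 ligand genes and sialic acid enzymes listed, 12 were measured and 0 passed. The MHC class I genes on the list, H2-T23 (Qa-1), H2-D1 and H2-K1, were not among those measured. Medians were -0.03 in BCR-ABL against vector, -0.04 in BCR-ABL-Blk against BCR-ABL and -0.02 in BCR-ABL-Blk against vector. H60b, a ligand of the Klrk1 receptor, read 6.47 and 6.26 in BCR-ABL-Blk cells, 5.76 and 6.20 in BCR-ABL cells, and 7.16 and 7.14 in vector cells. Receptor and ligand both read highest on the vector arrays, and H60b differed by -1.17 in BCR-ABL against vector (limma adjusted p = 0.0518) and by -0.79 in BCR-ABL-Blk against vector (limma adjusted p = 0.127). Cmah makes the hydroxylated sialic acid that several Siglecs prefer. It read 6.85 and 6.54 with BCR-ABL-Blk, 6.87 and 6.92 with BCR-ABL, and 8.88 and 7.91 with vector, at -1.5 in BCR-ABL against vector (limma adjusted p = 0.132) and -1.70 in BCR-ABL-Blk against vector (limma adjusted p = 0.0761). St6gal1, the transferase behind the ligand of Cd22, differed by -0.70 and -0.74 in these comparisons. St3gal1, which adds sialic acid in another linkage, differed by 0.42 and 0.54. Of 22 lectin-like and sialic acid receptors with other names, such as Cd22, Cd33 and Mrc1, 20 were measured and 0 passed, with medians of 0.00, -0.05 and -0.07. Mgl2, the close relative of Clec10a, differed by 0.26, -0.59 and -0.33 in the 3 comparisons.

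Several marker lists of other cell types differed between the groups, though few of their genes passed, and their part in the member differences was not tested. In sorted cells, fewer cells of a type and less RNA per cell cannot be told apart. As a check of the c-Kit side of the gate, Kit read between 10.33 and 10.92 on all arrays. Ly6a, the gene of Sca-1, was not among the genes measured, so that side was not checked. Cd34 read between 11.54 and 11.97. The LSK list (10 of 12 measured) had a median of 0.53 in BCR-ABL against vector. Its median was 0.09 in BCR-ABL-Blk against BCR-ABL and 0.56 in BCR-ABL-Blk against vector. On that list Cd48 rose in BCR-ABL against vector (0.47, limma adjusted p = 0.0493) and Meis1 in BCR-ABL-Blk against vector (1.08, limma adjusted p = 0.049). Monocyte and macrophage markers (10 of 12 measured) were all below 0 in both comparisons with vector, with medians of -0.82 for BCR-ABL cells and -1.0 for BCR-ABL-Blk cells, and Ccr2 fell in BCR-ABL-Blk against vector (-1.38, limma adjusted p = 0.049). Each array's position of this list, relative to the mean of the 6, was -0.45 and -0.37 with BCR-ABL-Blk, -0.40 and -0.01 with BCR-ABL, and 0.57 and 0.79 with vector, beside Clec7a, Clec12a and Clec5a. Dendritic cell markers (12 of 12 measured) were likewise all below 0 in both comparisons with vector (medians -0.90 and -0.57), where H2-Ab1 fell by 1.38 and by 1.22 (limma adjusted p = 0.0206 and 0.0408). Neutrophil markers (11 of 11 measured) were all below 0 in BCR-ABL-Blk against BCR-ABL, with a median of -0.40, beside Clec4d and Clec5a; their median was -0.24 in BCR-ABL against vector and -0.70 in BCR-ABL-Blk against vector. On the list of mast cells, basophils and eosinophils (12 of 12 measured), Gzmb rose in both comparisons with vector (3.25 and 2.50, limma adjusted p = 0.0187 and 0.049), and the list medians were 0.57, -0.37 and -0.06 in the 3 comparisons. Megakaryocyte markers (7 of 9 measured) had medians of 0.41, -0.07 and 0.48 and erythroid markers (6 of 9 measured) medians of -0.40, -0.37 and -0.75, and 0 genes of either list passed.

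NK cell markers (12 of 12 measured) had medians of -0.25, -0.06 and -0.10 in the 3 comparisons and 0 passed; Nkg7 and Fcgr3 on this list are also expressed by myeloid cells. Ncr1, an NK cell receptor used to define the lineage, read 5.66 and 5.72 in BCR-ABL-Blk cells, 5.75 and 5.69 in BCR-ABL cells, and 6.36 and 5.75 in vector cells. Xcl1 read 7.33 and 7.47 with BCR-ABL-Blk, 7.12 and 6.79 with BCR-ABL, and 8.78 and 6.94 with vector, and Il2rb 6.74 and 6.79, 6.62 and 6.62, and 7.35 and 6.57 in the same order of groups. These 3 markers were high on vector replicate 1 alone. Ccl5, a chemokine of NK and T cells, read 8.88 and 8.20 in BCR-ABL-Blk cells, 8.94 and 8.91 in BCR-ABL cells, and 9.65 and 8.97 in vector cells. Fcgr3, the Fc receptor CD16, read 8.25 and 8.01 with BCR-ABL-Blk, 8.97 and 8.80 with BCR-ABL, and 9.08 and 9.98 with vector. Both of these stood highest on the vector arrays, but by a small margin on 1 of them. Ccl5 read 8.97 on vector replicate 2 against 8.94 on BCR-ABL replicate 1. Fcgr3 read 9.08 on vector replicate 1 against 8.97 on BCR-ABL replicate 1. Klrd1 stood clear on both vector arrays, at 6.89 and 6.95 against at most 5.99 elsewhere. Cd244a went the other way, at 0.73 in BCR-ABL against vector and 0.48 in BCR-ABL-Blk against vector (limma adjusted p = 0.285 and 0.488). Of the 12 genes, 4 were above 0 in the first of these comparisons and 2 in the second, against 10827 and 10202 of all 19938 genes. Relative to the mean of the 6 arrays the whole list lay at -0.06 and -0.03 with BCR-ABL-Blk, -0.03 and -0.05 with BCR-ABL, and 0.20 and -0.06 with vector, and its part in the Klrd1 difference was not tested. B cell markers (9 of 10 measured) had medians of -1.74, 0.46 and -1.48 in the 3 comparisons, and 0 of them passed. Both BCR-ABL arrays were below both vector arrays for 8 of the 9, against 14.9% of all genes. Relative to the mean of the 6 arrays the list lay at -0.32 and -0.74 with BCR-ABL-Blk and -1.06 and -0.47 with BCR-ABL. With vector it lay at 1.76 and 0.34, so both vector arrays were highest and replicate 1 more so. T cell markers (8 of 9 measured) had medians of 0.02, 0.00 and -0.03, and the genes of the CD3 chains passed in no comparison. Single genes of the list moved in opposite directions without passing. Thy1 differed from vector by 1.21 in BCR-ABL cells and 1.46 in BCR-ABL-Blk cells, and Cd28 by -0.91 and -0.88.

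**Figure D5:**
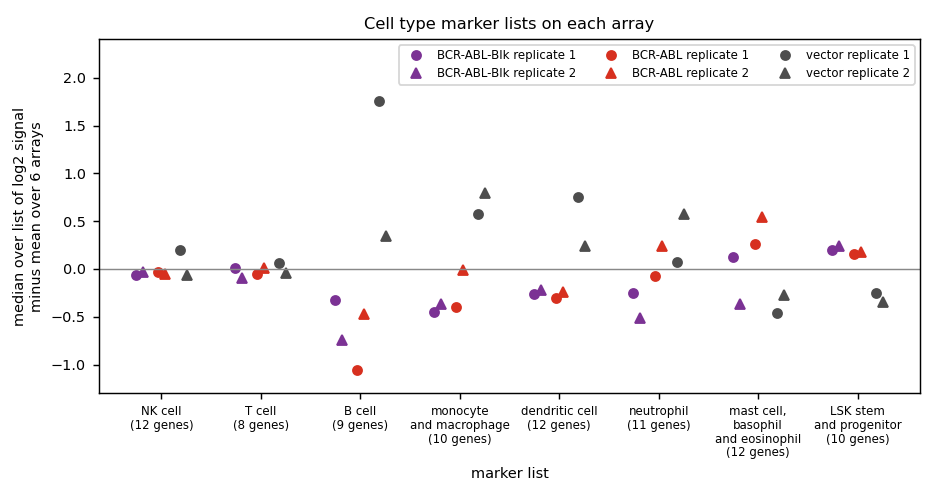
Position of 8 cell type marker lists (horizontal axis, number of genes measured in brackets) on each array, as the median over the list of the log2 signal minus the gene's mean over the 6 arrays (vertical axis). Both vector arrays are highest for B cell, monocyte and dendritic cell markers and lowest for LSK markers. Vector replicate 1 stands furthest up for B cell markers (1.76) and is alone in standing high for NK cell markers (0.20).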

How the data were processed

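The authors deposited log2 values for 35557 probe sets. The submitters' processing notes name Affymetrix Expression Console 1.1 and RMA; which options and build were used is not given in the sources used here. Column medians ran from 7.01 to 7.52, so the deposited log2 values were quantile normalized. The platform annotation gave 21789 probe sets with 1 symbol and 1621 with several. Probe sets with several symbols were not used, and for each gene the probe set with the highest mean over the 6 arrays was kept, which left 19938 genes. All 60 member IDs matched the RefSeq gene table, and 0 symbols changed.

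Differences were tested with limma 3.58.1 in R 4.3.3 (lmFit, eBayes with an intensity trend) over 6 arrays and 3 groups without a block, with 3 residual and 4.40 prior degrees of freedom. Tests are two-sided with p-values Benjamini-Hochberg adjusted over all 19938 genes, with a threshold of 0.05. The number of arrays limits the precision: the median SE of a difference was 0.129. The fit was tested on simulated data. Described in full are members past the test, the 2 of each subfamily with the smallest p and a list of well-known receptors, of which those read nearly alike are given by their range. The members and lists were chosen with earlier results of these data known. Alternatives covered scaling, the block, the trend, array weights, a level filter, probe sets per gene, arrays in the fit and each array left out; counts at an unadjusted p were added after the data were seen. A promoter was found for 47 members, and Klrd1 and Clec10a have none here. Plots used matplotlib 3.10.9, numpy 2.4.6 and pandas 2.3.3 under Python 3.11.15.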

Additional observations from a re-analysis of the deposited data

How the results depend on the processing

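Calls depended on the processing, and except where noted the cause was not tested. Of the members, 1 was called in BCR-ABL against vector and 1 in BCR-ABL-Blk against vector; on the deposited values without normalization the counts were 8 and 7, and with arrays centred on their median 4 and 4. Among genes above the median level they were 0 and 0, because Klrd1 lies below that level and was not tested there. The replicate numbers did not pair the arrays (correlations of 0.03, 0.08 and -0.06), and with the replicate block Klrd1 had adjusted p = 0.0211 for BCR-ABL and 0.0509 for BCR-ABL-Blk against vector, so 1 and 0 members were called. In BCR-ABL-Blk against vector 0 were called without the intensity trend, with array weights and with only the 4 arrays compared. Leaving out a vector array raised the calls in BCR-ABL against vector over the whole table, and leaving out a BCR-ABL array cut them. Member calls moved in the same direction, the lone array of a group being assumed to vary like the others. In BCR-ABL-Blk against BCR-ABL 0 members were called in every fit run. The median member difference was -0.22 in BCR-ABL against vector, 0.25 in BCR-ABL-Blk against BCR-ABL and 0.03 in BCR-ABL-Blk against vector without normalization, and 0.02 and -0.26 in the first and second of these among genes above the median level. Over single arrays left out it ran from -0.15 to -0.04, from -0.07 to -0.01 and from -0.16 to -0.09.

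Some differences changed sign. Without normalization between arrays, which shifts all genes of a comparison, this held in BCR-ABL against vector for Clec4n (-0.11), Klrb1 (-0.08) and Siglecf (-0.09). In BCR-ABL-Blk against BCR-ABL it held for Clec11a (0.08), Clec1a (0.16), Klra5 (0.03), Klrb1b (0.07), Klrb1c (0.25), Klrk1 (0.26), Siglec1 (0.24) and Siglecf (0.08). In BCR-ABL-Blk against vector it held for Clec11a (0.15), Clec2h (0.04), Clec4d (0.03), Klrb1c (0.06) and Siglec1 (0.02). With single arrays left out, BCR-ABL against vector gave -0.36 to 0.45 for Clec4n, -0.02 to 0.12 for Siglecf, -1.89 to 0.14 for Klra2, -0.26 to 0.20 for Klrc1, -0.23 to 0.14 for Klrb1c and -0.22 to 0.05 for Siglec1. BCR-ABL-Blk against BCR-ABL gave -0.43 to 0.02 for Clec11a, -0.21 to 0.16 for Klrb1c, -0.10 to 0.05 for Klrk1 and -0.19 to 0.08 for Siglec1. BCR-ABL-Blk against vector gave -0.23 to 0.22 for Clec11a, -0.37 to 0.14 for Clec4d, -0.17 to 0.03 for Klrb1c, -0.53 to 0.07 for Clec2m and -0.02 to 0.66 for Klrc1.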

Other observations

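A probe set listed for Klra9, Klra5 and Klra3 together read 4.51 and 4.58 in BCR-ABL-Blk cells, 4.25 and 4.88 in BCR-ABL cells, and 4.60 and 7.11 in vector cells, with the high value on vector replicate 2 alone. The probe sets named for Klra3 and Klra5 alone read 4.95 and 4.12 on vector replicate 2, near their other arrays. The other 3 probe sets shared by Klra genes read between 3.89 and 4.54 on all 6 arrays. A second Clec4g probe set, not used above, read 6.04 and 5.84 in BCR-ABL-Blk cells, 5.76 and 5.73 in BCR-ABL cells, and 5.64 and 5.75 in vector cells.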
